A study of Mus musculus with 9 samples.

Results

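Genes that mark fields of the hippocampus were followed through 9 mouse brain arrays, together with Iyd and Cabp7. The field genes are Prox1, C1ql2, Dsp and Lct of the dentate gyrus and Fibcd1, Wfs1 and Spink8 of the CA fields. For Iyd and the calneuron gene Cabp7 no field is given here. Together they are 9 of the 19938 genes measured. The group was chosen on measured values as well as on known sites of expression, since the differences of both 5xFAD groups from wild type were known when it was put together. Those differences are therefore given as a description of the 9 genes, with no p-value, and counts of calls among them test nothing. Each gene had 1 probe set naming it alone, and all 9 genes were measured.

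The samples form 3 groups of 3 mice. The first is B6SJLF1/J wild type given phosphate-buffered saline (PBS), the second 5xFAD given PBS, and the third 5xFAD given human amylin, a hormone that the pancreatic beta cell secretes with insulin. The 5xFAD line carries transgenes under the neuronal Thy1 promoter, mutant human APP among them, and deposits amyloid. Injections were intraperitoneal and daily for 10 weeks, and the mice were about 5 months old. The series is titled as cortex, while the sample labels say only brain tissue. Nothing in the labels gives the mice's sex or how the tissue was cut. The labels call the arrays of a group biological replicates. A p-value sets a difference of group means against the spread of arrays within groups.

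The hippocampus lies beneath the neocortex and is wired as a loop: granule cells of the dentate gyrus send mossy fibres to CA3 pyramidal cells, which project to CA1. Each of these fields keeps its own gene programme through life, so that single genes can label a field in adult tissue. The hippocampus supports the memory of places and events and is among the regions affected early in Alzheimer's disease. In extracts of whole tissue, fewer cells of a field, less RNA per cell and less hippocampus in the piece cut cannot be told apart.

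Cabp7 encodes calneuron 2, a small EF-hand calcium sensor held at the Golgi membrane, where calneurons restrain the phosphatidylinositol kinase Pi4kb. On the log2 intensity scale its probe set (10383891) read 8.64, 8.31 and 8.43 in the wild-type mice. It read 6.36, 6.38 and 6.46 in 5xFAD mice on PBS and 6.40, 6.59 and 6.36 in those on amylin. All 6 transgenic arrays thus lay below all 3 wild-type arrays, and the highest of them was 1.73 below the lowest wild-type array. The group means were 8.46 ± 0.17 (SD, n = 3) in wild type, 6.40 ± 0.06 (SD, n = 3) on PBS and 6.45 ± 0.12 (SD, n = 3) on amylin. Against wild type Cabp7 was lower by 2.06 ± 0.09 log2 (SE of the limma fit) on PBS, or 4.18-fold, and by 2.01 ± 0.09 on amylin, or 4.04-fold. Among the decreases of all 19938 genes, ranked by size, it stood at place 3 on PBS and at place 1 on amylin.

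Prox1, C1ql2, Dsp and Lct mark granule cells of the dentate gyrus. Prox1, the homeobox factor that gives these cells their identity, is also made by interneurons of caudal origin and by part of the thalamus. Its probe set (10361023) read 8.03, 8.18 and 8.03 in wild type. It read 6.80, 6.87 and 6.97 in 5xFAD on PBS, and 6.38, 7.05 and 6.65 on amylin. The 5xFAD groups overlapped with each other and not with wild type. The amylin arrays spanned 0.67, the widest range of Prox1 in a group, against 0.15 in wild type and 0.18 on PBS. The difference from wild type was -1.20 ± 0.14 log2 (SE) on PBS and -1.39 ± 0.14 on amylin.

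C1ql2 encodes a secreted C1q-like protein that mossy fibres release and that holds kainate receptors at their synapses. Its probe set (10349340) read 7.63, 7.29 and 7.29 in wild type, 6.36, 6.56 and 6.36 on PBS, and 6.53, 6.54 and 6.31 on amylin. Every transgenic array was again below every wild-type array, here by at least 0.73. C1ql2 was lower than in wild type by 0.98 ± 0.11 log2 (SE) on PBS and by 0.95 ± 0.11 on amylin, 1.97-fold and 1.93-fold.

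Dsp, desmoplakin, anchors intermediate filaments to desmosomes and is a granule cell marker in the forebrain. Its probe set (10404649) read 6.79, 6.91 and 6.57 in wild type, 5.67, 5.68 and 5.09 on PBS, and 5.52, 5.43 and 5.50 on amylin. The third PBS array stood below the other two by more than the whole range of the amylin group, 0.09. The difference from wild type was -1.27 ± 0.15 log2 (SE) in both 5xFAD groups. Lct encodes lactase, the intestinal disaccharidase, whose transcript also labels granule cells. Its probe set (10357418) read 6.37, 7.09 and 6.65 in wild type, 5.07, 5.33 and 4.93 on PBS, and 5.37, 5.20 and 4.99 on amylin. Wild-type mice differed most among themselves in this gene, by 0.72, and were still separate from the transgenic mice. Lct was lower by 1.59 ± 0.18 log2 (SE) on PBS and by 1.51 ± 0.18 on amylin. In 5xFAD both Dsp (5.09 to 5.68) and Lct (4.93 to 5.37) read below the array medians of 5.71 to 5.79.

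**Figure D1:**
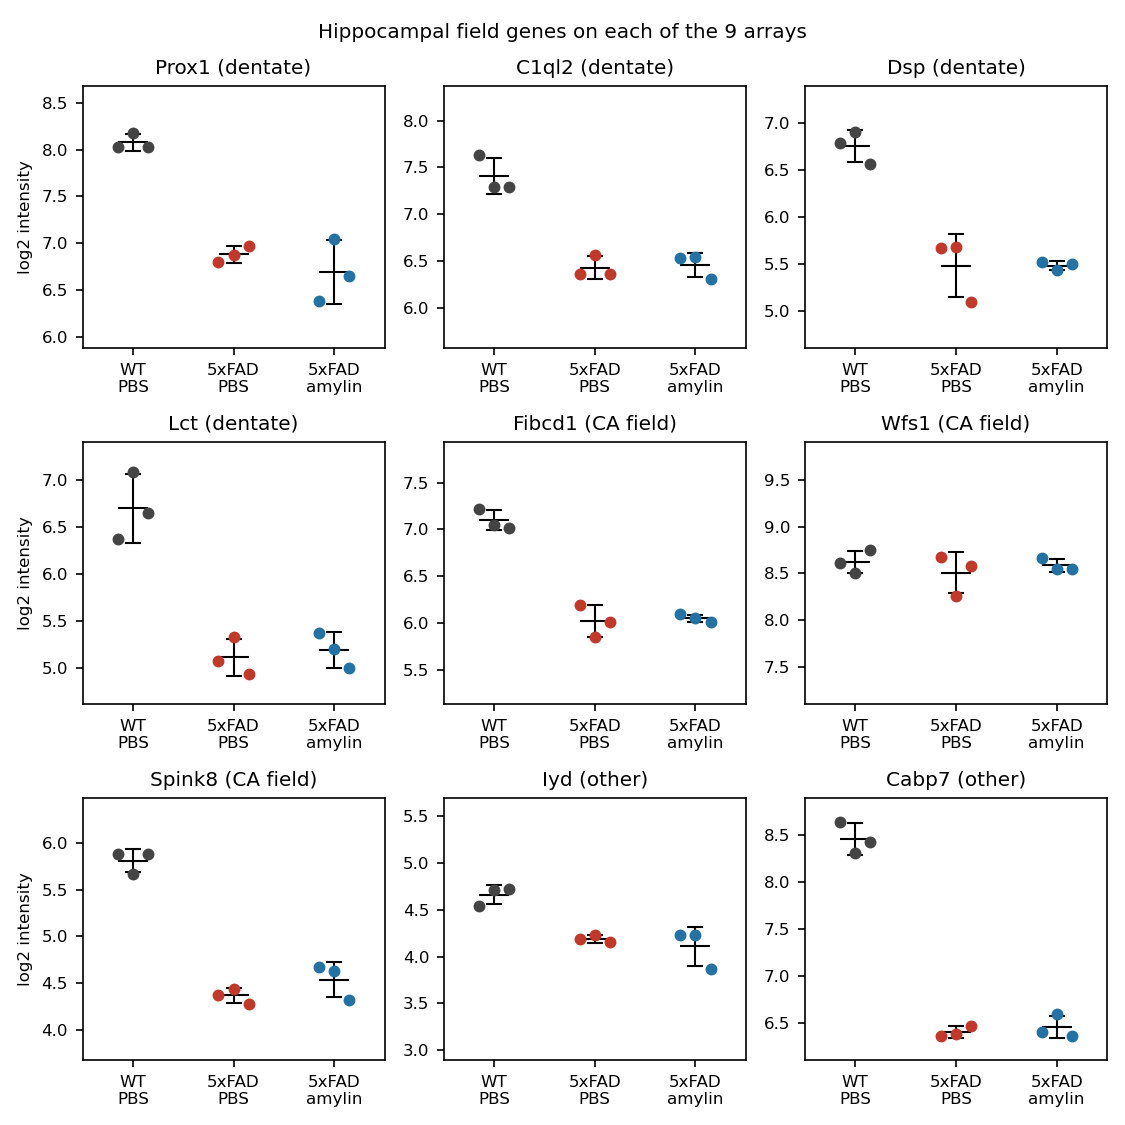
Log2 intensity of the 9 genes on each array (points), with the mean and SD of each group of 3 mice (bars); every panel spans the same height of the log2 scale. In 8 panels the 3 wild-type arrays lie above all 6 transgenic arrays, while Wfs1 overlaps in all 3 groups.

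Of the genes that mark CA pyramidal cells, Spink8 and Fibcd1 were low in the transgenic mice and Wfs1 was not. Spink8, a Kazal-type serine protease inhibitor of the pyramidal layer, read 5.88, 5.67 and 5.88 in wild type, 4.38, 4.44 and 4.28 on PBS, and 4.67, 4.63 and 4.32 on amylin (probe set 10589407). Its difference from wild type was -1.44 ± 0.10 log2 (SE) on PBS and -1.27 ± 0.10 on amylin, the groups being apart by 1.00 at the nearest arrays. In 5xFAD Spink8 was dim, at 4.28 to 4.67, below the array medians of 5.71 to 5.79. Fibcd1, a membrane receptor that binds acetylated sugars and marks CA1, read 7.22, 7.05 and 7.02 in wild type, 6.19, 5.85 and 6.01 on PBS, and 6.10, 6.05 and 6.01 on amylin (probe set 10481566). It was lower by 1.08 ± 0.09 log2 (SE) on PBS and by 1.04 ± 0.09 on amylin.

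Wfs1 encodes wolframin, a membrane protein of the endoplasmic reticulum. It is a standard CA1 marker, and is also made in the upper neocortex, the striatum and the amygdala. Its probe set (10529605) read 8.61, 8.51 and 8.75 in wild type, 8.68, 8.26 and 8.58 on PBS, and 8.67, 8.55 and 8.55 on amylin. All 3 groups overlapped. The difference from wild type was -0.12 ± 0.11 log2 (SE) on PBS, with a 95% interval of -0.36 to 0.12, and -0.04 ± 0.11 on amylin, with an interval of -0.28 to 0.20.

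Iyd encodes iodotyrosine deiodinase, which recovers iodide in the thyroid. Its probe set (10367691) read 4.54, 4.71 and 4.72 in wild type, 4.19, 4.23 and 4.16 on PBS, and 4.23, 4.23 and 3.87 on amylin. The groups were separate from wild type by 0.31 at the nearest arrays, the smallest gap among the 8 separate genes. The differences were -0.46 ± 0.10 log2 (SE) on PBS and -0.54 ± 0.10 on amylin. Iyd was also the gene that left the data when the dimmest 25% of genes were removed, and its call against wild type on PBS was lost without wild-type replicate 2 or 3 or PBS replicate 1 or 3, with differences of -0.44, -0.43, -0.46 and -0.45.

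Calls over all genes were made at a Benjamini-Hochberg adjusted p under 0.05 in limma, a linear model fitted to all genes on all 9 arrays. As a description, 8 of the 9 genes lay past that threshold, lower in 5xFAD on PBS than in wild type. Of all genes, 4.92% were lower at that threshold and 8.58% changed in either direction. The groups did not overlap, with 5xFAD lower, in 8 of the 9 genes and in 15.6% of all genes. On amylin against wild type 8 of the 9 genes were again lower, where 2.86% of all genes were lower and 5.21% changed. The groups were apart with 5xFAD lower in 8 of 9, and in 12.3% of all genes. Nothing is read from these shares, because the genes were chosen with these differences known and both comparisons use the same wild-type arrays. The median difference of the 9 genes was -1.20 on PBS and -1.27 on amylin, beside -0.01 over the other genes in each.

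**Figure D2:**
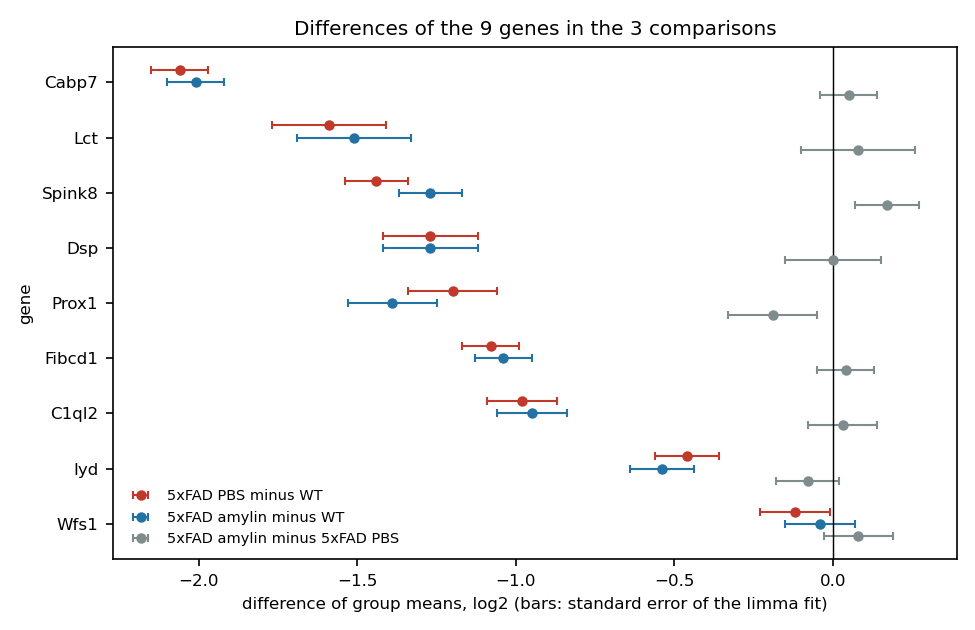
Differences of group means (log2, points) with the standard error of the limma fit (bars) for the 9 genes, ordered by the difference of 5xFAD on PBS from wild type. Both differences from wild type run from about -2 for Cabp7 to near 0 for Wfs1, and amylin minus PBS within 5xFAD lies between -0.19 and 0.17.

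Amylin against PBS within 5xFAD equals the difference between the 2 comparisons known at the choice of the genes, and it uses the same 6 transgenic arrays. It is not independent of that choice, and its values are a description too. None of the 9 genes lay past the threshold (limma, 0 of 9 at an adjusted p under 0.05 and 0 of 9 at an unadjusted p under 0.05). Over all genes 0.00502% changed, 1 gene. In 0 of 9 genes did the 2 groups separate in either direction, against 3.81% of all genes lower and 5.49% higher without overlap.

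For Cabp7 the difference of amylin from PBS was 0.05 ± 0.09 log2 (SE), with a 95% interval of -0.15 to 0.25. For Prox1 it was -0.19 ± 0.14, with an interval of -0.50 to 0.13. The largest positive difference was that of Spink8, 0.17 ± 0.10, with an interval of -0.05 to 0.40. The intervals of C1ql2 (-0.20 to 0.27), Dsp (-0.33 to 0.33), Lct (-0.32 to 0.48) and Fibcd1 (-0.16 to 0.23) reached no further than 0.48 from 0. Those of Wfs1 (-0.16 to 0.32) and Iyd (-0.30 to 0.14) did so too.

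Within a group the 9 genes did not keep 1 order of arrays. In wild type each array was the highest for 3 of the 9 genes. The clearest shift of an array was amylin replicate 3, the lowest of its group in 7 of the 9 genes, with a median deviation from the group mean of -0.09. For the 49 other hippocampal genes described below the same array's median deviation was -0.01, and over all genes -0.019.

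The sequence before the start sites of the 9 genes was read as a description, since the genes were chosen with their differences known. RefSeq (GRCm38.p6) gave a promoter for 8 of the 9 genes, all but Spink8, and the 250 bases before the start are considered here. These 3 are shown for the largest difference (Cabp7), the granule cell factor (Prox1, the more upstream of its 2 starts) and the gene that did not differ (Wfs1), 5′ to 3′ on the gene's strand. Capitals mark every match, on either strand, to 5 motifs: the GC box GGGCGG, the NeuroD-type E-box CAGATG, the palindromic E-box CAGCTG, the core of the cAMP response element TGACG and the TATA box TATAAA.
Cabp7 (chr11:4747180-4747429, minus strand): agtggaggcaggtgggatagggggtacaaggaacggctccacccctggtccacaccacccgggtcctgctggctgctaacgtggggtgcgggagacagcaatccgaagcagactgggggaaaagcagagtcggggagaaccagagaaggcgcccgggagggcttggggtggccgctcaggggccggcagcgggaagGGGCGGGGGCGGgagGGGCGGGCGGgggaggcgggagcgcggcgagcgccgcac
Prox1 (chr1:190170828-190171077, minus strand): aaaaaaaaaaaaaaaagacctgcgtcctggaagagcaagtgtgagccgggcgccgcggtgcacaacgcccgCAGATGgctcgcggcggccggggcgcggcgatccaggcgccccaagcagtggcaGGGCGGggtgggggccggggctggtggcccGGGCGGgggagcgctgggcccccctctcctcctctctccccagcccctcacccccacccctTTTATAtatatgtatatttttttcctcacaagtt
Wfs1 (chr5:36988983-36989232, minus strand): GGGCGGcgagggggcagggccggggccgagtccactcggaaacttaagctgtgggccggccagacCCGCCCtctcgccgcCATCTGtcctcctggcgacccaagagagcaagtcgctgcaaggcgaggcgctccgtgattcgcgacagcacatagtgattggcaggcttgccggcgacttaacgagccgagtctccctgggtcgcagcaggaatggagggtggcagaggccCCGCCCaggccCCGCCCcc

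The capitals of Cabp7 are GC boxes, 4 in all, between 54 and 35 bases before the start, with an overlap of the last 2. Wfs1 likewise holds 4 GC boxes, and 1 E-box of the NeuroD type. The upstream start of Prox1 has 2 GC boxes, 1 NeuroD-type E-box and 1 TATA box on the opposite strand. Over the 8 genes a GC box occurred in 5 (Cabp7, Dsp, Fibcd1, Prox1 and Wfs1), against 32.7% of 32851 promoter windows of that length. These windows do not cover every chromosome, and Prox1 was counted over both of its starts. The NeuroD-type E-box occurred in 3 (Prox1, Wfs1 and Iyd, with 14.4% of those windows) and the cAMP response core in 2 (Fibcd1 and Iyd, with 17.8%). The TATA box occurred in 2 (Prox1 and Iyd, with 12.4%) and the palindromic E-box in 0 (13% of those windows). No motif of the 5 was in all 7 separate genes with a promoter, and C1ql2 and Lct held none. Base composition differed as well, from 42.8% G and C in Lct to 72.4% in Cabp7 and Dsp, with a median of 52.4% over the same windows. A match of letters is a description and not a bound site.

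Other genes of the hippocampal fields were taken from lists made for this comparison, without the 9 genes above. Of 49 such genes measured, 14 fell and 3 rose in 5xFAD on PBS (limma, adjusted p under 0.05), and 32 did not pass. Their median difference was -0.15, beside -0.01 for the other genes, and all-gene shares of calls are those given above. Without a single array the count of 17 called genes lay between 10 and 13: it was 11 without wild-type replicate 1 or 2 or PBS replicate 3, and 10 without wild-type replicate 3. On amylin against wild type 10 fell and 1 rose, with a median of -0.12. Between amylin and PBS 0 of the 49 passed (5 at an unadjusted p under 0.05), with a median of 0.03.

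Among 15 further granule cell genes 4 fell on PBS and 0 rose. Il16, a cytokine precursor, was at 6.33 ± 0.11 (SD, n = 3) in wild type and 5.28 ± 0.17 (SD, n = 3) on PBS, a fall by 1.05 on the log2 scale (SE 0.12, adjusted p = 0.000851). Tdo2, tryptophan dioxygenase, fell by 0.80 (adjusted p = 0.000156), the axon guidance gene Sema5a by 0.70 (adjusted p = 0.00829) and the ciliary factor Rfx3 by 0.26 (adjusted p = 0.0437). On amylin the first 3 were again lower than in wild type, with Il16 at -1.02 (adjusted p = 0.00144), Tdo2 at -0.74 (adjusted p = 0.000334) and Sema5a at -0.67 (adjusted p = 0.0145). Other accepted granule cell genes did not pass on PBS: calbindin (Calb1) differed by 0.15 ± 0.09, Dock10 by 0.05 ± 0.11, Trpc6 by -0.01 ± 0.11 and Stxbp6 by -0.09 ± 0.10. The median of the list was -0.15.

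Of 9 further CA1 genes 4 fell and 0 rose on PBS, with a median of -0.38. The orphan receptor Gpr161 read 7.31, 7.20 and 7.14 in wild type, 6.07, 6.12 and 5.98 on PBS, and 6.28, 6.25 and 6.13 on amylin. It fell by 1.16 on PBS (SE 0.07, adjusted p = 3.1e-05) and by 1.00 on amylin (adjusted p = 0.000108). The Nodal antagonist Lefty1 fell by 0.51 (adjusted p = 0.00347) and Mpped1, a metallophosphoesterase, by 0.28 (adjusted p = 0.0224). Lefty1 was dim, at 4.55 ± 0.05 (SD, n = 3) in wild type, below the array medians of 5.71 to 5.79. The serotonin receptor gene Htr1a fell by 0.59 on PBS (adjusted p = 0.00135) and differed by -0.15 ± 0.07 on amylin (adjusted p = 0.279). Its difference between amylin and PBS, 0.43 ± 0.07, did not pass (adjusted p = 0.269).

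Of 10 CA3 genes 4 fell and 1 rose on PBS, with a median of -0.26. Grik4, the kainate receptor subunit of mossy fibre synapses, fell by 0.53 (SE 0.09, adjusted p = 0.00677), Ptgs2, the inducible cyclooxygenase, by 0.53 (adjusted p = 0.0388), the cadherin gene Cdh24 by 0.25 (adjusted p = 0.0239) and the apoptosis regulator Bok by 0.26 (adjusted p = 0.0269). Coch, which encodes the extracellular protein cochlin, rose by 0.84 ± 0.19 (adjusted p = 0.0226). Of 10 CA2 genes 0 fell and 1 rose: Actn2, an actin cross-linker, by 1.31 ± 0.13 (adjusted p = 0.000527). The CA2 markers Rgs14 (-0.11 ± 0.06), Amigo2 (-0.32 ± 0.12) and Pcp4 (0.12 ± 0.06) did not pass. Of 5 genes shared by several fields, hippocalcin (Hpca) fell by 0.71 (adjusted p = 9e-05) and Neurod2 by 0.39 (adjusted p = 0.00961), and the receptor kinase Tyro3 rose by 0.23 (adjusted p = 0.0491).

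**Figure D3:**
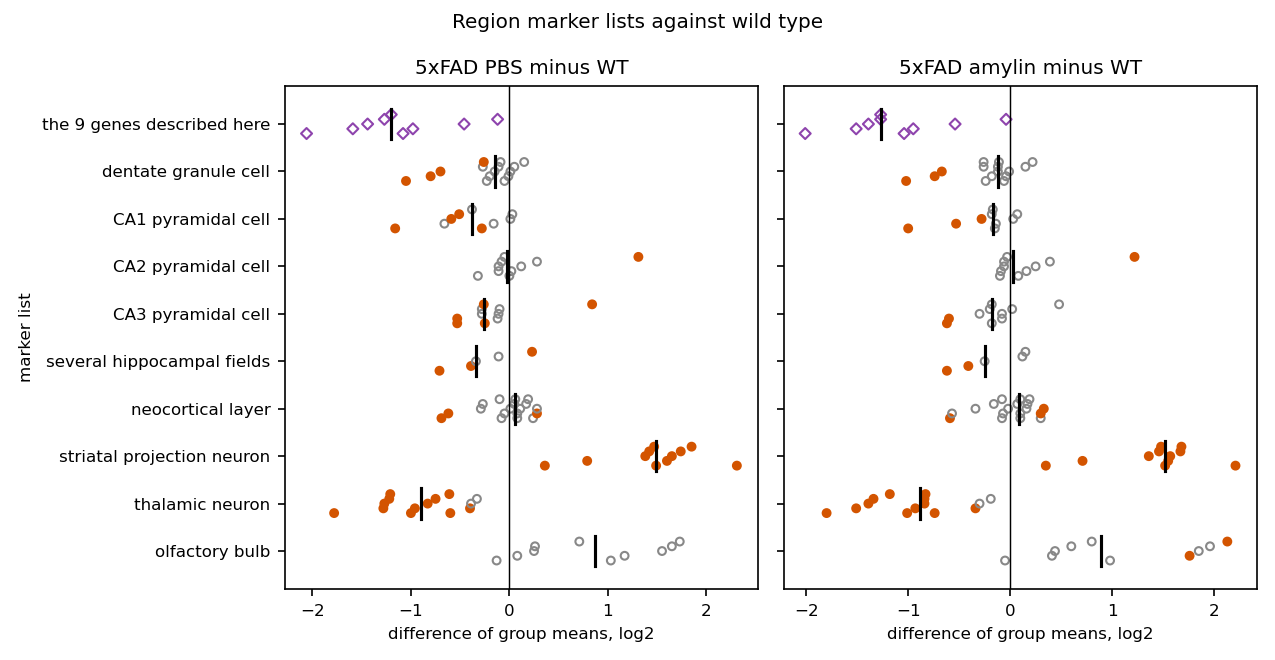
Differences from wild type (log2) of single genes in 9 marker lists, for 5xFAD on PBS (left) and on amylin (right). Filled points passed an adjusted p under 0.05, open circles did not, black bars are list medians, and the 9 genes described here (diamonds) carry no test. Medians on PBS were -0.15 for dentate, 1.49 for striatal and -0.90 for thalamic genes.

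Relatives and partners of single members were read from lists of their own. In the calcium sensor family of Cabp7, 4 of 18 genes fell and 1 rose on PBS. Its nearest relative Caln1 (calneuron 1) differed by -0.07 ± 0.06 log2 (adjusted p = 0.558) and the kinase Pi4kb by -0.08 ± 0.06 (adjusted p = 0.485). The neuronal calcium sensor Ncs1, which activates that kinase, fell by 0.46 (adjusted p = 0.00171), the sensor Vsnl1 by 0.32 (adjusted p = 0.0184) and calmodulin 3 (Calm3) by 0.19 (adjusted p = 0.0452). Cabp1, caldendrin, rose by 0.32 ± 0.08 (adjusted p = 0.0458), and Hpca is the fourth that fell. On amylin against wild type 3 fell and 0 rose, and in amylin against PBS 0 of the 18 passed.

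Among 12 genes of the C1q-like and cerebellin proteins and their receptors 2 fell on PBS, C1ql4 by 0.78 (adjusted p = 0.0106) and Grik4, and 0 rose. C1ql3, the granule cell relative of C1ql2, differed by -0.27 ± 0.12 (adjusted p = 0.218), the adhesion receptor Adgrb3 by 0.00 ± 0.06, the kainate subunit Grik2 by 0.19 ± 0.06 (adjusted p = 0.0916) and the presynaptic receptor Nrxn3 by -0.04 ± 0.06. Of 11 desmosome genes measured 2 fell and 0 rose. Pkp2, plakophilin 2, which binds desmoplakin, read 7.34, 7.42 and 7.34 in wild type, 6.01, 6.22 and 5.85 on PBS, and 6.56, 6.68 and 6.09 on amylin. It fell by 1.34 on PBS (adjusted p = 0.000711) and by 0.92 on amylin (adjusted p = 0.00691), and the difference between the 5xFAD groups, 0.42 ± 0.14, did not pass (adjusted p = 0.675). Dsc3, a desmosomal cadherin, fell by 0.52 on PBS (adjusted p = 0.0321). Plakoglobin (Jup, -0.08 ± 0.11) and Pkp4 (-0.11 ± 0.07) did not pass.

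Genes with the pattern nearest to each member were found by the root mean square distance between log2 profiles over the 9 arrays, each gene centred on its own mean. Their differences are a description, since likeness to the members chose them. The genes nearest to Cabp7 were Shisa6 (0.311), a partner protein of AMPA receptors, the homeobox gene Lhx9 (0.336) and Spink8 (0.344). Shisa6 was lower than in wild type by 1.51 ± 0.08 on PBS and by 1.35 ± 0.08 on amylin. Prox1 lay nearest to the neuropeptide gene Grp (0.115), Plekhg1 (0.124) and Lhx9 (0.145), and the last 2 are on the thalamic list. C1ql2 lay nearest to the nicotinic receptor subunit gene Chrna4 (0.096), Gpr161 (0.104) and Il16 (0.121).

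Gpr161 was among the 3 nearest genes of C1ql2, Dsp, Fibcd1 and Spink8. Dsp lay nearest to the tetraspanin gene Tspan18 (0.105) and Egfl6 (0.146), and Fibcd1 had Tanc1 (0.12), a postsynaptic scaffold, and Slit1 (0.129), an axon guidance ligand, after Gpr161 (0.113). Spink8 lay nearest to the copine gene Cpne7 (0.146) and Shisa6 (0.152). Lct had 2 members as its nearest genes, Dsp (0.245) and Spink8 (0.257), followed by Olfml2b (0.276), and Iyd had Arsj (0.055), Lefty1 (0.083) and Tbata (0.084). Wfs1 lay nearest to Kdm6b and Dhrs11 (both 0.037), a histone demethylase and a dehydrogenase gene, whose differences from wild type on PBS were -0.08 ± 0.09 and -0.12 ± 0.09, and then to the receptor gene Qrfpr (0.057).

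Markers of other brain regions moved on the same arrays as the 9 genes. Of 11 striatal genes measured 11 rose on PBS and 11 on amylin. Their mean above the wild-type level ranged from 1.34 to 1.57 on PBS arrays and from 1.31 to 1.49 on amylin arrays, with -0.13 to 0.09 in wild type. Of 14 thalamic genes 12 fell in each comparison with wild type, and their mean ranged from -0.98 to -0.83 on PBS and from -1.17 to -0.56 on amylin, with -0.14 to 0.14 in wild type. Of 10 olfactory bulb genes 0 passed on PBS and 2 rose on amylin, with means from 0.14 to 1.62 and from 0.53 to 1.46. In amylin against PBS 0 of these 10 genes passed. Of the neocortical layer genes, which mark the tissue in the series title, 1 of 18 rose and 2 fell on PBS, and their mean ranged from -0.09 to 0.01 there and from -0.05 to 0.03 on amylin. The part of these regional shifts in the differences of the hippocampal genes was not tested.

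Prox1 and the thalamic list had the same order of arrays in the amylin group, the opposite order in the PBS group and neither in wild type. In the amylin group Prox1 read 6.38, 7.05 and 6.65 in replicates 1, 2 and 3, and the thalamic mean was -1.17, -0.56 and -1.11. C1ql2, a granule cell gene, read 6.53, 6.54 and 6.31 on the same arrays, and the mean of the 15 other granule cell genes was -0.21, -0.25 and -0.23. In the PBS group Prox1 read 6.80, 6.87 and 6.97 and the thalamic mean was -0.83, -0.89 and -0.98. In wild type Prox1 read 8.03, 8.18 and 8.03 and the thalamic mean was 0.14, 0 and -0.14. With 3 arrays a group these orders have no test, and the part of thalamic RNA in the Prox1 signal was not tested.

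**Figure D4:**
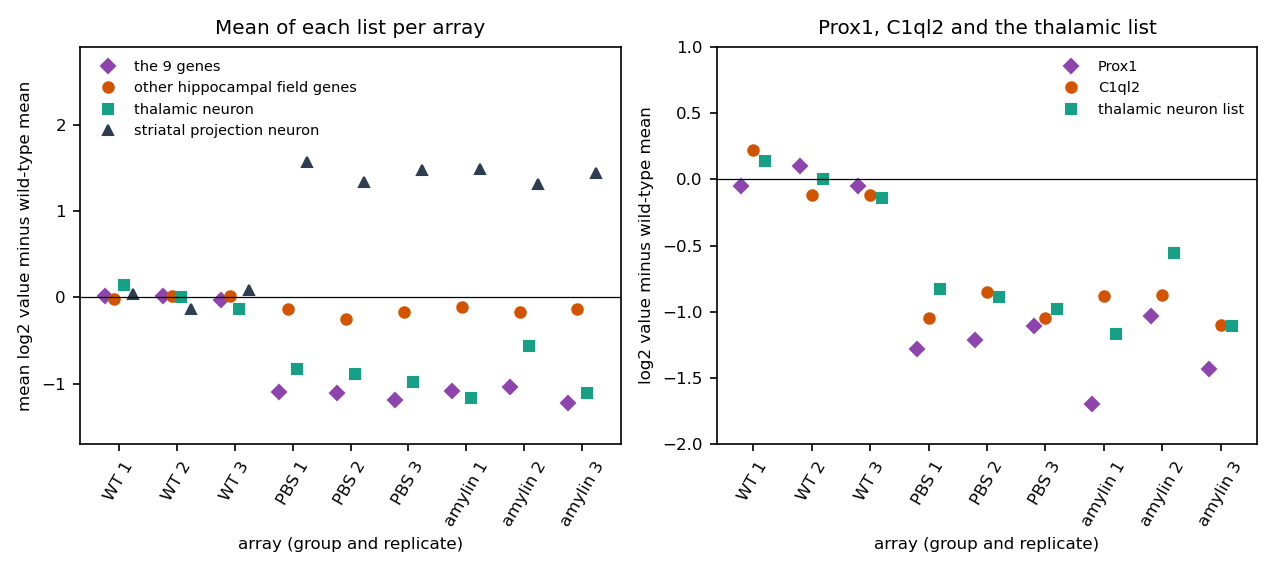
Left, mean log2 value above the wild-type mean for the 9 genes and for 3 marker lists on each array; right, Prox1, C1ql2 and the thalamic list on the same scale. The 9 genes and the thalamic list lie low and the striatal list high on all 6 transgenic arrays, and Prox1 is highest on amylin replicate 2, as is the thalamic list, but on PBS replicate 3 and wild-type replicate 2, where the thalamic list is not.

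Cell type markers were counted as well. Of all genes 8.58% were called in either direction on PBS and 5.21% on amylin, against wild type. Of 10 microglial genes 10 rose on PBS and 9 on amylin, and of 7 astrocyte genes 1, Gfap, rose in each. Of 10 general neuronal genes 4 fell on PBS and 0 on amylin, with medians of -0.11 and -0.08. Of 6 myelin genes 1 fell on PBS and 5 on amylin, and of 6 choroid plexus genes 1 rose on PBS and 0 on amylin. These counts are all against wild type. In amylin against PBS 0 of the 10 microglial, 7 astrocyte, 10 neuronal, 6 myelin and 6 choroid plexus genes passed. Their part in the differences of the 9 genes was not tested. With 3 arrays a group, a difference had a median standard error of 0.07 log2 over all genes. Medians of single arrays over all probe sets ran from 5.71 to 5.79.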

How the data were processed

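RNA of 9 mice was measured on 1 Affymetrix array each. The deposited values are log2 intensities of 35556 probe sets, made by the authors with RMA in the R package oligo, per the submitters' processing notes. RMA corrects the background of each array, equalises the quantiles of all arrays and summarises the probes of a set. Versions, genome build and probe annotation version are not given in the sources used here.

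Of the probe sets 21789 name 1 gene, 1621 several and 12146 none. The probe set with the highest mean stood for each of 19938 genes, and none was filtered. Differences between groups were estimated in limma 3.58.1 (R 4.3.3) from a model with 1 mean per group over all 9 arrays, an empirical Bayes prior and Benjamini-Hochberg adjustment over all genes (threshold 0.05). The fit was also run on simulated data with normal noise drawn independently for each gene and array. Shifts shared by many genes, such as those of regional markers, were not simulated. The 20 marker lists hold 219 genes, of which 209 were measured. Text names up to 4 called genes of a list by p, direct partners of a member and the 3 genes nearest to each member in profile. A few markers that did not pass (Calb1, Dock10, Trpc6, Stxbp6, Rgs14, Amigo2 and Pcp4) were named after their values had been seen. The members and the lists were chosen with earlier results of these data known. Promoter windows were read with Python 3.11.15. Alternatives were repeated quantile normalization, median centring, filters on the lowest 25% and 50% of genes, a trended and robust prior, array weights, a fit restricted to the pair in question, a replicate block, the mean of all probe sets and leaving out each array.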

Additional observations from a re-analysis of the deposited data

How the results depend on the processing

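Differences of the members from wild type, on which they were chosen, are given as values, and their calls support nothing. Those of Prox1, C1ql2, Dsp, Lct, Fibcd1, Spink8 and Cabp7 stayed past the threshold under each alternative that kept the gene. Iyd kept its direction, and leaving out 1 array ended its call in 4 cases on PBS and in 2 on amylin (wild-type replicates 2 and 3). Removing the lowest 50% of genes left 4 members, since Dsp, Lct, Fibcd1, Spink8 and Iyd are among the dimmer genes. The count of members called then fell from 8 to 3 in both comparisons with wild type. Wfs1 reversed when an array was left out, with -0.21 to 0.01 on PBS and -0.09 to 0.03 on amylin. Between amylin and PBS the small differences reversed in C1ql2 (-0.01 to 0.11), Lct (-0.01 to 0.19), Fibcd1 (-0.05 to 0.13), Wfs1 (-0.04 to 0.17), Iyd (-0.14 to 0.04) and Cabp7 (-0.02 to 0.09), with 0 members called throughout. The difference of Dsp, which rounded to 0 in the fit used above, also lay on both sides of 0 (-0.19 to 0.10).

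Leaving out 1 array moved the called genes on PBS from 1710 to between 863 and 1306, on amylin from 1039 to between 447 and 911, and between amylin and PBS from 1 to between 0 and 7. The count moved by over 1.5 times without wild-type replicate 1, 2 or 3 or PBS replicate 3 on PBS (863, 1126, 996 and 969) and without wild-type replicate 1, 2 or 3 or amylin replicate 3 on amylin (447, 602, 596 and 548). Other hippocampal genes called on PBS went from 17 to between 10 and 13. With only the 2 groups compared in the fit, 0 genes differed between amylin and PBS. With the replicate block that count was also 0; the block changed no call of a member (Cabp7 -2.06 on PBS). Deviations of same-numbered arrays from their group means correlated at 0.09, 0.18 and 0.06 between PBS and wild type, at -0.06, -0.05 and 0.14 between amylin and wild type, and at 0.10, 0.13 and 0.12 between amylin and PBS. The numbers were not taken as pairs, since not every correlation was over 0.1, and the labels do not say what a number marks.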

Other observations

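Settings in which members are also known were looked at apart from the hippocampus. Interneurons of caudal origin, which express Prox1, showed no called change: of 12 genes 0 rose and 0 fell on PBS and on amylin against wild type in limma. Their median differences were 0.07 and 0.19, and the nearest to the threshold on PBS was Adarb2, an RNA-editing family gene, at -0.68 ± 0.18 log2 (adjusted p = 0.0508). At an unadjusted p under 0.05 in limma stood 4 of the 12 on PBS and 6 on amylin, beside 4229 and 3824 of all 19938 genes. Calb2 and Sp8 of this list are also on the olfactory bulb list. Among 12 genes of endoplasmic reticulum stress, the pathway that wolframin restrains, 2 rose and 1 fell on PBS and 1 rose on amylin. In amylin against PBS 0 of these 12 genes passed. Atf4, a transcription factor of the integrated stress response, rose by 0.25 ± 0.06 on PBS (adjusted p = 0.0332) and by 0.33 ± 0.06 on amylin (adjusted p = 0.0149). On PBS Edem1, which sorts misfolded glycoproteins, rose by 0.30 ± 0.07 (adjusted p = 0.0348) and the ubiquitin ligase gene Syvn1 fell by 0.22 (adjusted p = 0.0361).

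Of 11 lineage factors of granule cells 2 fell on PBS, Neurod1 by 0.58 (adjusted p = 0.0199) and the Wnt effector Lef1 by 0.60 (adjusted p = 0.0168). Lef1 is also on the thalamic list. On amylin Lef1 fell by 0.84 (adjusted p = 0.00535), and Eomes, which marks granule cell progenitors and is also on the olfactory bulb list, rose by 2.13 ± 0.47 (adjusted p = 0.0308). Eomes differed from wild type by 1.73 ± 0.47 on PBS (limma, adjusted p = 0.0526). Between amylin and PBS its difference was 0.40 ± 0.47 (limma, adjusted p = 0.882).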
